A study of Mus musculus with 7 samples.

Results

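The genes described here are 48 members of the NF-kB, TNF and IL-1 inflammatory pathway, taken by name from a fixed list out of 53458 genes measured by RNA sequencing. They comprise 28 components (5 NF-kB subunits, 5 kinases, 7 receptors, 10 adaptors and ubiquitin ligases, and the inhibitor Nfkbib), 9 feedback regulators whose own genes NF-kB induces, and 11 induced products. All 48 were found in the files, and 45 had enough reads to be tested. RNA came from LT-HSCs (long-term haematopoietic stem cells, a small marrow population from which all blood cells descend) of aged C57/BL6 mice. The groups were 3 mice that carry a single working allele of Srp72 (Srp72+/-, replicates 1 to 3) and 4 wild-type mice (WT, genotype Srp72+/+, replicates 1 to 4). Cells were sorted from marrow as Ter119-, B220-, CD3-, Mac1- and Gr1- cells that were Sca1+, cKit+, Flt3-, CD48- and CD150+, and their RNA was amplified before sequencing. The comparison asks whether the loss of 1 Srp72 allele alters this pathway in aged LT-HSCs. Srp72 encodes a subunit of the signal recognition particle, and the sources used here state neither which part of it is altered nor the exact age.

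NF-kB is a family of dimeric transcription factors that inhibitor proteins of the IkB family hold in the cytoplasm. Signals from TNF receptors, IL-1 receptors and Toll-like receptors (TLRs) pass through adaptors and ubiquitin ligases to the IkB kinase complex, which marks IkB for destruction and lets NF-kB enter the nucleus. The factor then switches on genes of cytokines and chemokines, together with genes of its own inhibitors, which end the response. In blood stem cells, inflammatory signals of this kind are known to drive cells out of rest and towards the myeloid lineage.

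The libraries held between 18054322 and 35247472 estimated reads, and 3 reads, taken here as the floor of detection, equal between 0.091 and 0.192 CPM (reads scaled to library size, with TMM factors). Srp72 itself was at 71.9, 45.7 and 109.8 CPM in Srp72+/- 1 to 3, against 99.6, 136.6, 103.0 and 88.4 CPM in WT 1 to 4, so the groups overlapped (edgeR quasi-likelihood test, adjusted p = 0.9998). The library of WT 2 stood apart: its 10 HSC markers summed to 180 CPM, against 1197 to 1947 CPM in the Srp72+/- libraries and 1872 to 2440 CPM in the other WT libraries. Its 10 neutrophil markers summed to 40048 CPM, against 1185 to 12571 CPM in Srp72+/- and 124 to 8823 CPM in the other WT libraries. Srp72+/- 1 had the lowest HSC sum after WT 2 (1197 CPM). The 9 erythroid markers summed to 5707, 1065.5 and 250 CPM in Srp72+/- 1 to 3, against 7839 CPM in WT 2 and 139 to 321 CPM in the other WT libraries. The 9 B and plasma cell markers summed to 4415, 1334 and 242 CPM in Srp72+/-, against 10609 CPM in WT 2 and 55.8 to 813 CPM in the other WT libraries. In bulk RNA, fewer cells of a type and less RNA per cell cannot be told apart. Fold changes that turn or move by over 1.5 times without WT 2 are given with that value too.

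Promoter sequences are shown because NF-kB acts through short sites in the genes it induces, which include the feedback regulators and products among the members. Components were classed by their role in the pathway, which does not mean that NF-kB induces none of them. The letters GGGA, then any 2 bases, then TTCC, a strict form of the kappaB site that NF-kB binds, were searched on both strands in the 300 bases from 250 before to 50 after each RefSeq transcription start on GRCm38.p6. They were found in 3 of 10 induced products, 1 of 8 feedback regulators and 2 of 22 components with a promoter sequence, against 1.63% of all 27025 genes. The looser textbook kappaB consensus, which includes every strict match, was found in 4 of 10 induced products, 6 of 8 feedback regulators and 7 of 22 components, against 9.55% of all genes. Genes with several starts have more windows, and a match is only a description of the letters. One strict match is shown for each of the 6 genes, 5′ to 3′ on the strand of the gene, with the 10 matching bases in capitals. Matches on both strands that overlap in Cxcl1 and Cxcl2 are shown once, and Nfkb2 has a further match at another of its starts. The windows are chr5:90891149-90891208 (plus strand) for Cxcl1, chr5:90903777-90903836 (plus) for Cxcl2, chr5:30013045-30013104 (plus) for Il6, chr12:55492648-55492701 (minus) for Nfkbia, chr19:46305680-46305739 (plus) for Nfkb2 and chr4:31963990-31964049 (plus) for Map3k7.
Cxcl1: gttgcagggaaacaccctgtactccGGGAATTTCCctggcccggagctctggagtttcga
Cxcl2: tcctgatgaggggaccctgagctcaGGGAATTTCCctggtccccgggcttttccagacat
Il6: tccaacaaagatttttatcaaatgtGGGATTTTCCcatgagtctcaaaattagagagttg
Nfkbia: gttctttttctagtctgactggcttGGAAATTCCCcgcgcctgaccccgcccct
Nfkb2: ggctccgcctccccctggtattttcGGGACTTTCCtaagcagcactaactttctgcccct
Map3k7: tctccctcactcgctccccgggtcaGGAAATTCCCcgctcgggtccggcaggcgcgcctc
Cxcl1 and Cxcl2, neighbouring chemokine genes, share the same 10 bases. Genes with a match differed widely in level: Cxcl1 and Il6 had 5 reads or fewer in every library, and Map3k7 was between 51.7 and 82.2 CPM.

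LT-HSC libraries of both genotypes held transcripts of most of the signalling chain. Of the 28 components, 25 had more than 3 reads in every library, as did 9 of 9 feedback regulators, against 6 of 11 induced products. On a scale per length (TPM, deposited values summed over protein-coding transcripts of a gene), the median over the components of each gene's median was 2.41, over the feedback regulators 3.56 and over the induced products 0.971. The highest component was Irak1, the kinase that follows IL-1 and Toll-like receptors, with a median of 15.4 coding TPM. Tnfrsf1a (11.3), Ikbkb (8.69) and Rela (6.86) came next in median coding TPM. These 4 levels overlapped between libraries, with ranges of 5.70 to 16.8 for Irak1, 6.86 to 17.6 for Tnfrsf1a, 4.56 to 21.3 for Ikbkb and 4.29 to 7.85 for Rela in coding TPM. A 300-base model counted as coding took 21.1% of the total TPM of Ikbkb on average, and between 0 and 44.3% by library. The place of Ikbkb in this order is therefore uncertain. Nfkbiz led the feedback regulators (median 5.99 coding TPM) and Ccl3 the induced products (5.61). Levels that include non-coding transcript models differ: Nfkbiz then reached a median of 69.4 TPM, of which a 188-base processed transcript took 89.6% on average. Over all 48 members a median of 90.9% of the reads was assigned to coding transcripts, but in 7 members less than 50% was, among them Ikbkb (26.4%), Relb (23.4%) and Nfkb1 (41.9%).

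**Figure D1:**
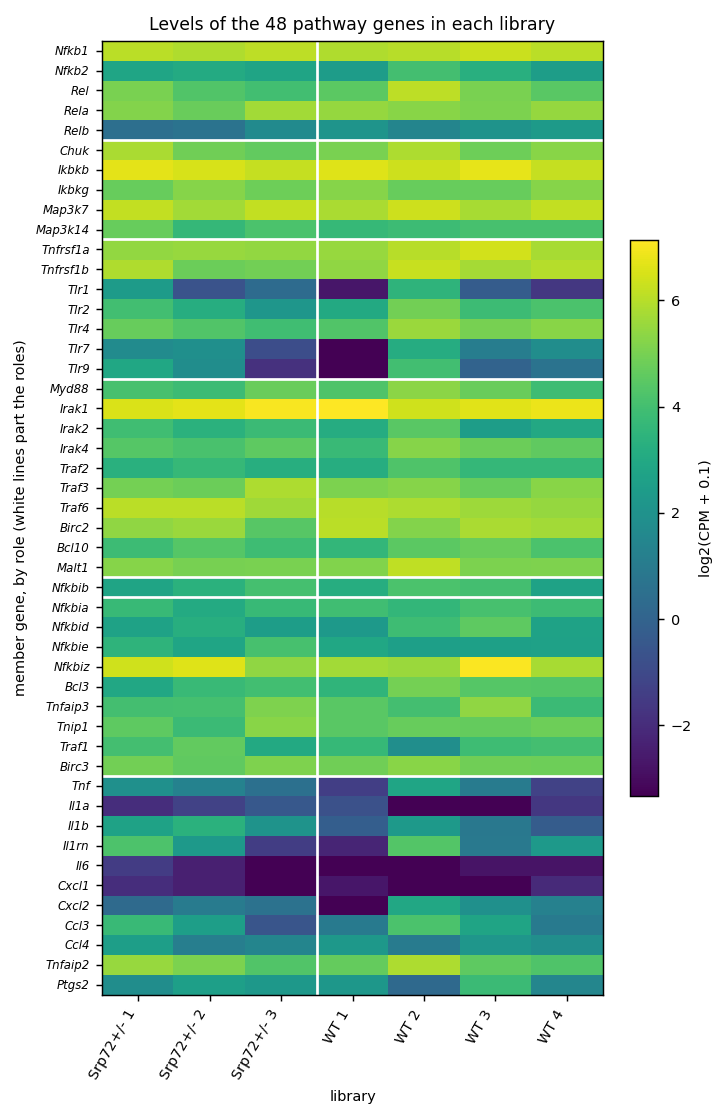
Level of each of the 48 genes as log2(CPM + 0.1), by colour, in the 3 Srp72+/- and 4 WT libraries, with white lines between roles in the order subunits, kinases, receptors, adaptors, Nfkbib, feedback regulators and induced products. Among the signalling genes in the upper rows Tlr1, Tlr7 and Tlr9 are at or near 0 in some libraries, and Il6 and Cxcl1 among the induced products never exceed 5 reads.

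None of the 45 tested members differed between Srp72+/- and WT LT-HSCs at a false discovery rate (FDR) threshold of 0.05 (quasi-likelihood test of edgeR, p adjusted over all genes by Benjamini-Hochberg). Across all 20314 tested genes 0 passed, which is 0%, and 365 had an unadjusted p below 0.05, which is 1.8%. Of the members, 1 of 45 had such a p (Il1b), a share near that background, and Il1b was higher in Srp72+/-, as were 1.01% of all tested genes at such a p. DESeq2 called 9 genes of all tested (0.0447% of those with an adjusted p) and voom with quality weights called 0, and neither called a member. For 0 of the 45 members did the libraries of the groups separate without overlap in CPM, against 3.57% of all tested genes (2.08% higher and 1.49% lower in Srp72+/-). In TPM of coding transcripts Il1b and Nfkbie did separate, and the share over all tested genes was not counted on that scale. The common biological coefficient of variation was 0.628, which limits what 3 and 4 libraries can detect.

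By fitted value, 32 of the 45 members were lower and 13 higher in Srp72+/-, at a median of -0.11 on the log2 scale. Of all tested genes, 50.7% were lower and 49.3% higher, at a median of -0.01. Of the 28 components, 23 had lower fitted values, with a median of -0.30. Feedback regulators were at 5 lower and 4 higher (median -0.07), and the 8 tested induced products at 4 lower and 4 higher. Without WT 2 the components had 17 of 28 lower fitted values and a median of -0.06, and without WT 2 and Srp72+/- 1 the values were 18 of 28 and -0.05. WT 2 was the highest of the 7 libraries for 16 of the 28 components, or 57.1%, against 22.8% of all tested genes.

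**Figure D2:**
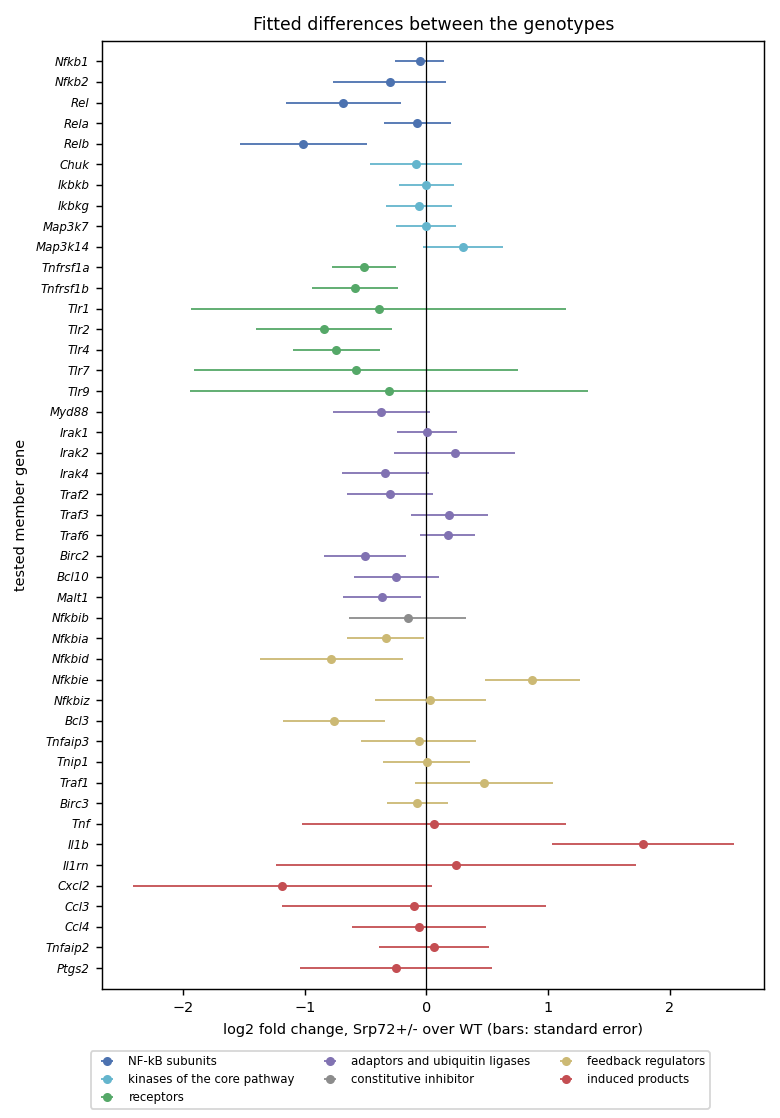
Log2 fold change of Srp72+/- over WT for the 45 tested genes from edgeR, with bars for the standard error and colours for the role. All 7 receptors and all 5 NF-kB subunits lie left of 0, with 0 genes past the FDR threshold, and Il1b has the highest value (1.78). In a fit without WT 2, 4 of 7 receptors and 4 of 5 subunits had values below 0, with medians of -0.42 and -0.10.

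Of the transcription factor subunits, the main activating subunit gene Rela and the p50 precursor gene Nfkb1 were close in level between the groups. Rela (chromosome 19, 5637483 to 5648130 on GRCm38) was at 36.2, 27.1 and 52.0 CPM in Srp72+/- 1 to 3, against 45.3, 38.3, 33.8 and 44.3 CPM in WT 1 to 4. Srp72+/- libraries held both the lowest and the highest Rela value. The fitted log2 fold change was -0.07 ± 0.28 (standard error, edgeR, adjusted p = 0.9998, the value shared by every tested member). Nfkb1 was at 66.5, 59.6 and 69.3 CPM in Srp72+/-, against 59.6, 64.8, 79.5 and 66.6 CPM in WT, a log2 fold change of -0.05 ± 0.20 (standard error).

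Lower fitted values were found for Rel and Relb, the genes of the subunits c-Rel and RelB. Rel was at 32.5, 19.8 and 15.8 CPM in Srp72+/-, against 22.8, 68.7, 32.3 and 21.9 CPM in WT (log2 fold change -0.68, standard error 0.47, unadjusted p = 0.186). WT 2 lay above every other library, and without it the Rel groups overlapped widely, at a log2 fold change of -0.17. Relb, singled out after its values were seen, was at 1.32, 1.47 and 3.12 CPM in Srp72+/-, against 4.15, 2.62, 4.08 and 5.13 CPM in WT. Every Srp72+/- library lay below 3 of the 4 WT libraries, and Srp72+/- 3 lay above WT 2. For Relb the log2 fold change was -1.01 ± 0.52 (standard error, edgeR, unadjusted p = 0.0887), and it was between -1.52 and -0.81 under every alternative tried. In coding transcripts, which held 23.4% of its reads, Relb was at 0.396, 0.447 and 0.351 TPM in Srp72+/-, against 1.52, 0.429, 0.569 and 0.223 TPM in WT. On that scale WT 4 was the lowest library and WT 1 the highest. Nfkb2, the p52 precursor gene of the non-canonical branch in which RelB acts, was at 7.04, 8.26 and 6.88 CPM in Srp72+/-, against 5.44, 15.9, 9.59 and 5.57 CPM in WT (log2 fold change -0.30, standard error 0.47). The sign of Nfkb2 turned without WT 2, at 0.11, and with voom, at 0.16.

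The kinase genes were close in level between the groups, with a median log2 fold change of -0.01. Ikbkb, Chuk and Ikbkg encode the catalytic subunits and the scaffold of the IkB kinase complex, Map3k7 the upstream kinase TAK1, and Map3k14 the kinase NIK of the non-canonical branch. Their mean log2 CPM was between 5.18 and 5.64 in the Srp72+/- libraries and between 5.23 and 5.42 in the WT libraries. Ikbkb averaged 89.9 ± 14.98 CPM in Srp72+/- and 90.01 ± 15.05 CPM in WT (SD, n = 3 and 4), and Map3k7 averaged 65.9 ± 12.3 CPM in Srp72+/- and 66.1 ± 13.7 CPM in WT. Ikbkg averaged 30.8 ± 5.99 CPM in Srp72+/- and 32.1 ± 6.79 CPM in WT, a log2 fold change of -0.06 (-0.14 without WT 2). Chuk was at 56.9, 28.8 and 24.7 CPM in Srp72+/-, against 32.7, 57.2, 28.2 and 38.3 CPM in WT (log2 fold change -0.09, and 0.16 without WT 2), with its highest values in Srp72+/- 1 and WT 2. Map3k14 was at 26.2, 12.3 and 18.1 CPM in Srp72+/-, against 12.8, 14.4, 17.1 and 17.0 CPM in WT (log2 fold change 0.30, standard error 0.33).

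For all 7 receptor genes the fitted value was lower in Srp72+/- (median -0.58 on the log2 scale), and 0 passed the FDR. Tnfrsf1a, the main receptor of TNF (chromosome 6, 125349362 to 125362484), was at 43.2, 45.7 and 43.8 CPM in Srp72+/-, against 45.6, 65.3, 86.9 and 54.6 CPM in WT. In CPM, the Srp72+/- values lay within a narrow band, and the groups overlapped only through WT 1, which was below Srp72+/- 2. In coding TPM there was no such band. On that scale Tnfrsf1a was at 11.3, 12.6 and 6.86 in Srp72+/-, against 8.80, 11.3, 17.6 and 10.2 in WT, and the groups overlapped widely. The fitted log2 fold change was -0.51 ± 0.26 (standard error, edgeR, unadjusted p = 0.0843), and between -0.64 and -0.34 under every alternative tried.

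Tlr4, the receptor of bacterial lipopolysaccharide, was at 26.4, 19.8 and 15.4 CPM in Srp72+/-, against 19.6, 47.3, 31.4 and 39.0 CPM in WT. Here too WT 1 was the only WT library within the Srp72+/- range in CPM. In coding TPM the overlap was wider, with Tlr4 at 2.57, 2.12 and 0.932 in Srp72+/-, against 1.64, 2.32, 2.24 and 3.03 in WT. For Tlr4 the log2 fold change was -0.74 ± 0.36 (standard error, edgeR, unadjusted p = 0.0705), and -0.54 without WT 2. Tnfrsf1b, the second TNF receptor, was at 59.997, 27.2 and 29.9 CPM in Srp72+/-, against 42.1, 77.1, 52.7 and 62.6 CPM in WT (log2 fold change -0.59, standard error 0.35, -1.06 without Srp72+/- 1 and -0.20 with the length offset). Tlr2, a receptor of bacterial lipopeptides that was added after its values were seen, was at 15.7, 9.19 and 4.46 CPM in Srp72+/-, against 8.13, 29.8, 14.3 and 17.8 CPM in WT (log2 fold change -0.84, standard error 0.56, and -0.45 without WT 2).

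The genes of Tlr1, the partner of TLR2, and of the nucleic acid receptors Tlr7 and Tlr9 were low and varied more between libraries of 1 genotype than between the genotypes. Tlr9 was at 7.36, 3.39 and 0.182 CPM in Srp72+/-, against 0, 15.7, 0.911 and 1.48 CPM in WT. Tlr7 was at 3.18, 3.57 and 0.455 CPM in Srp72+/-, against 0, 8.89, 2.06 and 3.37 CPM in WT, and Tlr1 at 5.19, 0.535 and 1.15 CPM in Srp72+/-, against 0.056, 11.1, 0.719 and 0.225 CPM in WT. WT 1 held 0 reads of Tlr7 and Tlr9 and 1 read of Tlr1, and WT 2 held the most of all 3. The sum of 10 neutrophil markers was 12571, 5395 and 1185 CPM in Srp72+/- 1 to 3, against 124 CPM in WT 1 and 40048 CPM in WT 2. The sum of 11 monocyte and macrophage markers was 668, 182 and 101 CPM in Srp72+/- 1 to 3, against 14.5 CPM in WT 1 and 1684 CPM in WT 2. None of these markers was at 0 in any library, but some lay under the floor of 3 reads. In WT 1, Adgre1 had 1 read and Fcgr1 had 2 reads. The part of the marked cells in the receptor values was not tested. Without WT 2, 4 of 7 receptors had lower fitted values, with a median of -0.42.

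**Figure D3:**
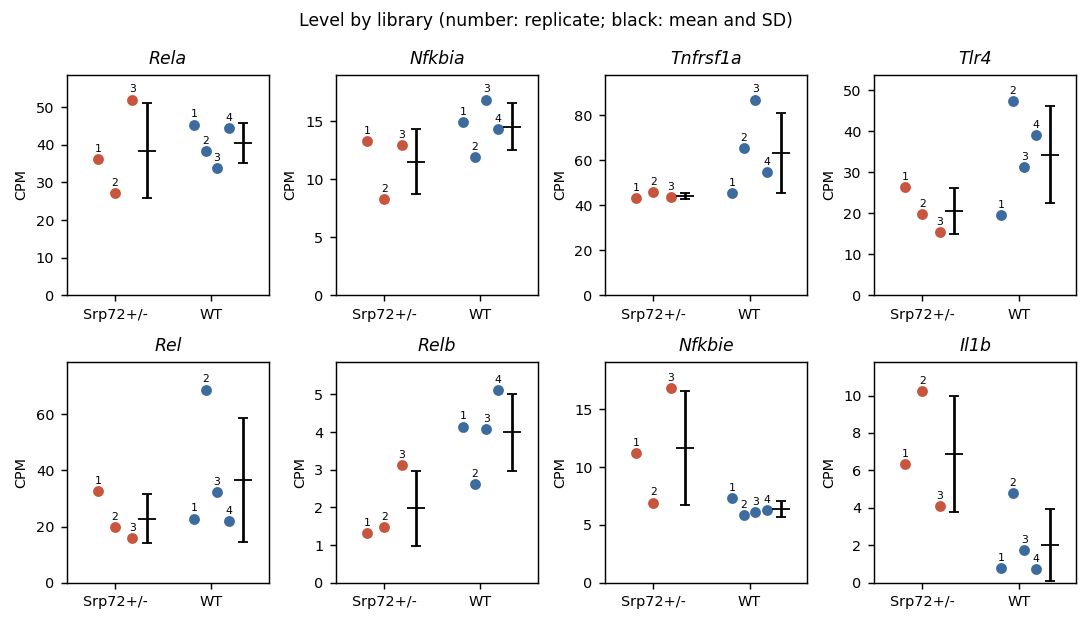
CPM of 8 genes in each Srp72+/- (red) and WT (blue) library, labelled by replicate number, with the mean and SD in black. The groups overlap in each panel, in Tnfrsf1a only through WT 1, in Relb and Il1b only through WT 2.

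The adaptor and ubiquitin ligase genes, which carry the signal from receptors to kinases, had 6 lower and 4 higher fitted values, with a median of -0.27 that was -0.07 without WT 2. Myd88, the shared adaptor of IL-1 and Toll-like receptors, averaged 19.4 ± 6.35 CPM in Srp72+/- and 25.1 ± 10.9 CPM in WT (SD, n = 3 and 4). The IL-1 receptor kinase genes Irak1, Irak2 and Irak4 averaged 109 ± 19.6, 13.1 ± 2.70 and 20.4 ± 2.91 CPM in Srp72+/-, against 109 ± 24.6, 11.1 ± 7.45 and 25.8 ± 9.83 CPM in WT. For Irak4 the log2 fold change was -0.34 ± 0.36 (standard error), and -0.097 without WT 2. Of the ubiquitin ligase genes, Traf6 averaged 60.8 ± 9.82 CPM in Srp72+/- and 53.9 ± 8.79 CPM in WT, Traf3 averaged 39.0 ± 16.7 CPM in Srp72+/- and 34.3 ± 5.69 CPM in WT, and Traf2 averaged 10.6 ± 1.88 CPM in Srp72+/- and 13.1 ± 4.13 CPM in WT.

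Birc2, which encodes the ubiquitin ligase cIAP1, was at 42.1, 47.8 and 21.6 CPM in Srp72+/-, against 66.2, 36.4, 56.5 and 51.3 CPM in WT. All Srp72+/- values were below 3 of the 4 WT values (log2 fold change -0.50, standard error 0.34, unadjusted p = 0.172). Bcl10 and Malt1 encode partners in a complex that links antigen receptors to NF-kB. Malt1 was at 37.8, 31.5 and 33.02 CPM in Srp72+/-, against 35.6, 71.3, 34.1 and 34.8 CPM in WT, so WT 2 alone stood apart (log2 fold change -0.36, standard error 0.32, and -0.03 without WT 2). Bcl10 averaged 16.8 ± 3.62 CPM in Srp72+/- and 19.9 ± 6.52 CPM in WT. The inhibitor gene Nfkbib was at 6.78, 10.2 and 16.5 CPM in Srp72+/-, against 9.13, 18.2, 16.0 and 6.38 CPM in WT (log2 fold change -0.15, standard error 0.48, and 0.089 without WT 2).

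Among the feedback regulators, Nfkbia, which encodes the classical inhibitor IkB-alpha and has a kappaB match 29 bases before its start (shown above), was at 13.3, 8.30 and 12.98 CPM in Srp72+/-, against 14.96, 12.0, 16.9 and 14.3 CPM in WT. All Srp72+/- values lay below 3 of the 4 WT values, and the groups overlapped through WT 2. The fitted log2 fold change was -0.34 ± 0.31 (standard error, edgeR, unadjusted p = 0.316). Tnfaip3, which encodes the deubiquitinating enzyme A20 that shuts the pathway down, was at 16.3, 16.7 and 34.3 CPM in Srp72+/-, against 21.9, 16.1, 42.1 and 13.8 CPM in WT (log2 fold change -0.07, standard error 0.47, and -0.21 without WT 2). Its partner gene Tnip1 averaged 25.3 ± 12.6 CPM in Srp72+/- and 25.3 ± 2.61 CPM in WT.

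The remaining inhibitor genes differed in direction. Nfkbie, which encodes IkB-epsilon (chromosome 17, 45555703 to 45563169), was at 11.2, 6.92 and 16.8 CPM in Srp72+/-, against 7.34, 5.82, 6.09 and 6.25 CPM in WT. The WT values were tight, and only WT 1 exceeded a Srp72+/- library. The fitted log2 fold change was 0.87 ± 0.39 (standard error, edgeR, unadjusted p = 0.0544), and 0.50 without Srp72+/- 3. In coding TPM, Nfkbie was at 0.906, 0.962 and 2.51 in Srp72+/-, against 0.789, 0.431, 0.824 and 0.769 in WT. The groups did not overlap on that scale, for which the share over all tested genes was not counted. Bcl3, which encodes a nuclear co-factor of the IkB family, was at 7.63, 13.7 and 15.4 CPM in Srp72+/-, against 11.3, 31.3, 20.6 and 19.9 CPM in WT (log2 fold change -0.76, standard error 0.42, unadjusted p = 0.105). Without WT 2 the Bcl3 value was -0.49, and without WT 2 and Srp72+/- 1 it was -0.25. Nfkbid, a further nuclear IkB gene, was at 6.46, 9.42 and 5.61 CPM in Srp72+/-, against 4.82, 14.6, 23.5 and 6.34 CPM in WT (log2 fold change -0.78, standard error 0.59, and -0.29 without WT 3). Nfkbiz, the nuclear IkB-zeta gene, averaged 74.2 ± 29.0 CPM in Srp72+/- and 72.6 ± 43.1 CPM in WT, with the highest value, 137 CPM, in WT 3. Birc3 and Traf1, genes of the ligase cIAP2 and of an induced adaptor, averaged 29.5 ± 5.41 and 16.3 ± 8.25 CPM in Srp72+/-, against 31.1 ± 4.90 and 11.7 ± 5.70 CPM in WT.

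Induced products were the most variable class. The median coefficient of variation between libraries was 55.8% in Srp72+/- and 107% in WT for the 11 products, against 29.9% in Srp72+/- and 32.0% in WT for the components and 39.1% in Srp72+/- and 39.3% in WT for the feedback regulators. Their low read numbers add counting error to this spread.

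Il1b, the gene of the cytokine IL-1 beta (chromosome 2, 129364570 to 129371139), had the smallest unadjusted p of all members. It was at 6.35, 10.2 and 4.09 CPM in Srp72+/-, or 120, 229 and 135 reads, against 0.785, 4.8, 1.73 and 0.719 CPM in WT, or 14, 75, 36 and 16 reads. All Srp72+/- libraries lay above 3 of the 4 WT libraries, and WT 2 lay above Srp72+/- 3. The fitted difference was 1.78 ± 0.75 on the log2 scale (standard error, edgeR, unadjusted p = 0.043, adjusted p = 0.9998), so the difference did not pass the test over all genes. Without WT 2 it was 2.67 ± 0.62 (standard error, edgeR, adjusted p = 0.8901). Under every alternative it kept its direction, with log2 fold changes between 1.35 and 2.82 and adjusted p between 0.8315 and 1. The neutrophil marker sums were 12571, 5395 and 1185 CPM in Srp72+/- 1 to 3, against 124, 40048, 8823 and 2886 CPM in WT 1 to 4. Within WT, Il1b was highest in WT 2 and next in WT 3, the WT libraries with the highest sums, while Srp72+/- 2 held the most Il1b of all. The part of these cells in Il1b was not tested. In coding TPM, Il1b was at 1.96, 3.59 and 1.06 in Srp72+/-, against 0.258, 0.971, 0.653 and 0.181 in WT. The groups did not overlap on that scale, for which the share over all tested genes was not counted.

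Other genes of the IL-1 group were measured beside Il1b. Il1rn, which encodes the secreted antagonist of the IL-1 receptor, was at 18.6, 4.82 and 0.273 CPM in Srp72+/-, against 0.112, 20.02, 1.77 and 4.86 CPM in WT (log2 fold change 0.24, standard error 1.48, 1.81 without WT 2 and -1.43 without Srp72+/- 1). It was highest in WT 2 and Srp72+/- 1, the libraries with the highest neutrophil, erythroid and B cell marker sums, and the part of those cells in its level was not tested. Il1a, the gene of IL-1 alpha, had 3, 7 and 21 reads in Srp72+/-, against 9, 0, 0 and 5 reads in WT, and was not tested. Il1r1, the signalling IL-1 receptor, which is not a member and was looked up after the values were seen, was at 19.2, 14.4 and 24.6 CPM in Srp72+/-, against 18.9, 6.46, 12.95 and 14.2 CPM in WT.

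Tnf, the gene of the founding cytokine of the TNF family, was low in all libraries, at 3.71, 2.37 and 1.33 CPM in Srp72+/-, against 0.280, 6.97, 1.92 and 0.315 CPM in WT. WT libraries held both the lowest and the highest values, and all 3 Srp72+/- libraries lay above WT 1 and WT 4. The log2 fold change of Tnf was 0.06, standard error 1.08. Without WT 2 it was 1.55, standard error 0.87 (edgeR, adjusted p = 0.9771), and with voom it was 1.99 (unadjusted p = 0.033, adjusted p = 0.905). Il6, a cytokine gene whose promoter match is shown above, had 5, 2 and 0 reads in Srp72+/-, against 0, 0, 1 and 1 reads in WT. Cxcl1 had 3, 2 and 0 reads in Srp72+/-, against 1, 0, 0 and 3 in WT, so no difference could be detected in either at this depth.

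The chemokine gene Cxcl2, a neutrophil attractant, was at 1.11, 1.92 and 1.43 CPM in Srp72+/-, against 0, 7.55, 3.69 and 2.34 CPM in WT. In CPM, all 3 Srp72+/- values lay below 3 of the WT values and above WT 1, which had 0 reads (log2 fold change -1.19, standard error 1.23, -0.44 without WT 2 and 1.1 with voom). Coding transcripts held 43.9% of the Cxcl2 reads. In coding TPM, Cxcl2 was at 0.271, 0.406 and 0.455 in Srp72+/-, against 0, 0.342, 0 and 0.273 in WT. On that scale the groups overlapped, and Srp72+/- 2 and Srp72+/- 3 held the highest values. Ccl3, a macrophage chemokine gene, was at 13.6, 5.71 and 0.576 CPM in Srp72+/-, against 1.85, 18.03, 6.71 and 1.84 CPM in WT (log2 fold change -0.11, standard error 1.09, 0.93 without WT 2, 0.78 with voom and -1.21 without Srp72+/- 1), and its neighbour Ccl4 averaged 3.46 ± 1.93 CPM in Srp72+/- and 3.60 ± 1.23 CPM in WT. Cxcl1 with Cxcl2, and Ccl3 with Ccl4, are related genes, and any reads they share were divided by the authors' tool. Such reads were not counted. Tnfaip2, a TNF-induced gene, was at 45.4, 33.3 and 19.4 CPM in Srp72+/-, against 25.05, 57.6, 23.5 and 19.2 CPM in WT (log2 fold change 0.06, standard error 0.45, and 0.54 without WT 2). Ptgs2, which encodes the prostaglandin-forming enzyme COX-2, was at 3.39, 5.94 and 4.67 CPM in Srp72+/-, against 4.6, 1.09, 13.8 and 2.70 CPM in WT (log2 fold change -0.25, standard error 0.79, and -0.59 without WT 2).

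**Figure D4:**
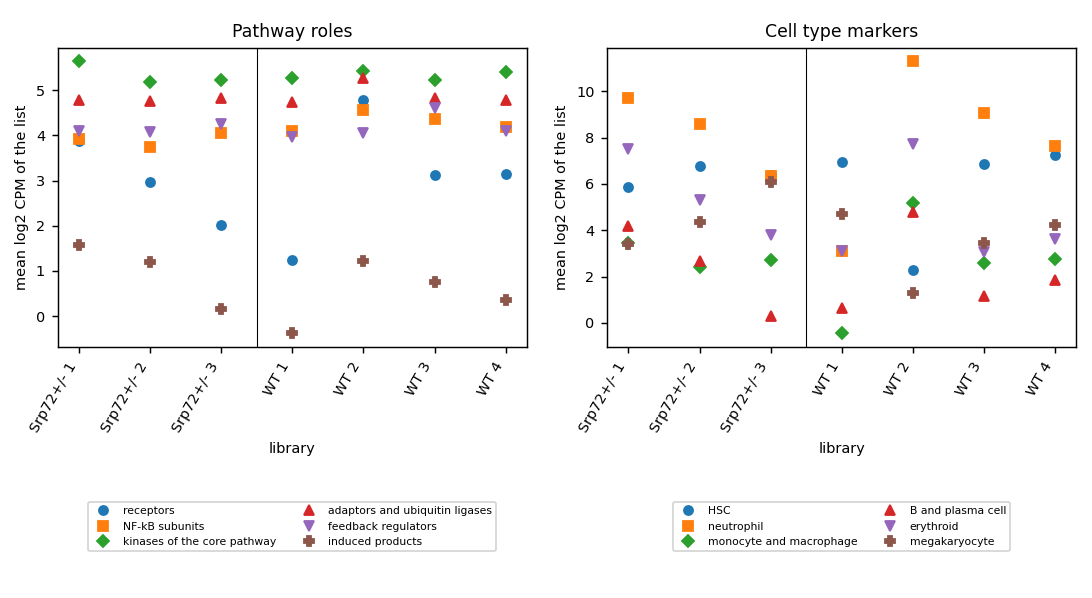
Mean log2 CPM of the genes of each pathway role (left) and of 6 marker lists (right) in the 3 Srp72+/- and 4 WT libraries. Receptors and induced products are lowest in WT 1, where neutrophil markers are lowest too, while kinases stay between 5.18 and 5.64 in all 7 libraries.

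Other genes of the pathway gave the same absence of calls. Of 52 further signalling genes, 0 passed the FDR, with 18 higher and 34 lower fitted values and a median of -0.17 (-0.02 without WT 2). The genes with the smallest p at a mean of 5 CPM or more were Ube2n, a ubiquitin-conjugating enzyme gene, at 40.4 ± 4.8 CPM in Srp72+/- and 60.2 ± 23.6 CPM in WT, the kinase gene Tbk1 at 40.6 ± 5.62 CPM in Srp72+/- and 53.8 ± 10.7 CPM in WT, and the bacterial sensor gene Nod1 at 13.3 ± 6.05 CPM in Srp72+/- and 20.03 ± 2.88 CPM in WT (SD, n = 3 and 4). Of 28 further induced genes, a list that also holds immediate-early genes such as Fos and Dusp1, 19 were tested and 0 passed. The 19 had 5 higher and 14 lower fitted values and a median of -0.34, which was 0.04 without WT 3. Fos had the smallest p of this list at a mean of 5 CPM or more. It was at 202, 157 and 152 CPM in Srp72+/-, against 187, 148, 896 and 310 CPM in WT, with WT 3 above all other libraries. Below that mean, Ccl2 had the smallest p, with 5, 0 and 0 reads in Srp72+/-, against 0, 42, 33 and 37 in WT. For Ccl2 the unadjusted p was 0.0454 (edgeR, adjusted p = 0.9998). It was the only 1 of the 19 with such a p below 0.05, against 1.8% of all tested genes.

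Over the settings tried, 17 of the 45 tested members kept the sign of their fitted difference in each of 15 alternatives, and 28 changed it at least once. Those that kept it with higher values in Srp72+/- were Il1b, Nfkbie, Traf1 and Traf6. Those with lower values were Rel, Relb, Tnfrsf1a, Tnfrsf1b, Tlr2, Tlr4, Irak4, Traf2, Birc2, Bcl10, Nfkbia, Nfkbid and Bcl3. The alternatives reuse the same libraries, and the share over all tested genes was not counted.

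**Figure D5:**
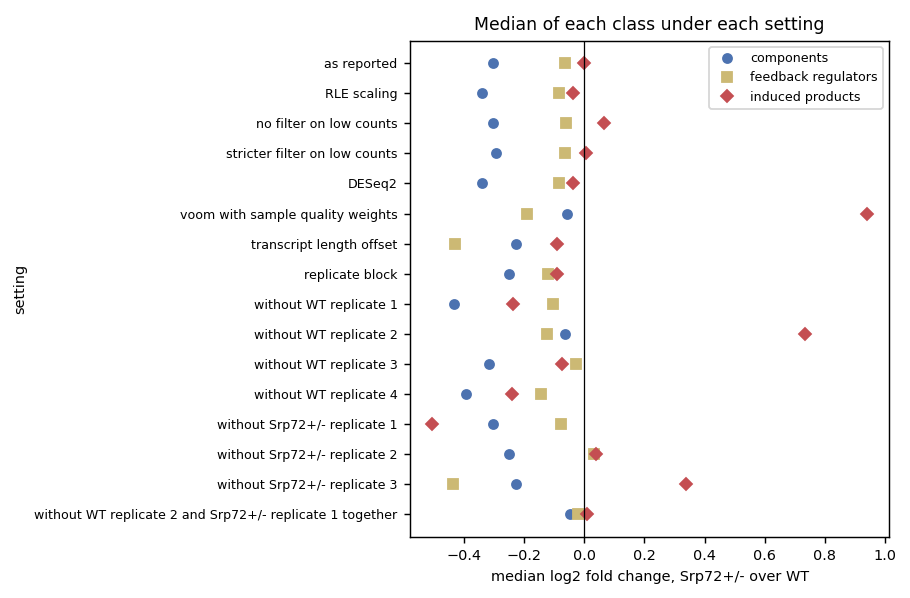
Median log2 fold change of Srp72+/- over WT for the components, feedback regulators and induced products as reported and under 15 other settings. The components stay below 0 throughout, from -0.44 without WT 1 to -0.05 without WT 2 and Srp72+/- 1, while the induced products lie between -0.51 and 0.94.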

How the data were processed

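RNA of LT-HSCs from 3 Srp72+/- and 4 WT aged mice was sequenced, 1 library a sample. The deposited tables give estimated counts, TPM and lengths per transcript, made with Salmon 0.12.0 on mm10 (GRCm38.p6), per the submitters' processing notes. The transcript release, bias options and strand setting were not given in the sources used here. Overlapping and antisense genes are therefore uncertain, as are Birc2 with Birc3. Deposited estimated counts were summed per gene with GENCODE M21 names (136176 of 136288 transcripts matched) and rounded. Genes were kept by filterByExpr (minimum count 10, total 15), leaving 20314, scaled by TMM and tested with edgeR 4.0.16 (robust quasi-likelihood fit, R 4.3.3) at an FDR of 0.05. DESeq2 1.42.0, voom in limma 3.58.1, other filters and scaling, a length offset, a replicate block and left-out libraries were alternatives. The fit was tested on simulated data with far less spread than these libraries. That test checks the procedure only and does not show which changes could be found here. Deposited TPM was summed over protein-coding transcripts for levels between genes. Of 48 members, 40 matched a RefSeq promoter. Counting error alone sets the floor of 3 reads.

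Fold changes are printed for 10 set genes, for up to 3 genes per role with the smallest p at a mean of 5 CPM or more, and for Relb and Tlr2. Other values were chosen after being seen. Members and lists were chosen with earlier results of these data known.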

Additional observations from a re-analysis of the deposited data

Results flagged for a closer look

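Malt1, the gene of a paracaspase that acts in NF-kB signalling, was flagged because WT 2 lay far from the other WT libraries, at a log2 CPM of 6.158. The other WT libraries lay between 5.096 and 5.159, and the gap took 0.94 of the range of the group, above the 95% limit of Dixon's test for 4 samples. It was the only value past that limit among 36 measures tested in this way, and chance flags about 1 in 20 groups.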

How the results depend on the processing

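No member was called under any of the 15 alternatives. DESeq2 called 9 genes of all tested, and edgeR with single libraries left out called between 0 and 1 (1 without WT 4). The component median log2 fold change lay between -0.44 and -0.05. The induced product median was 0.94 with voom and between -0.51 and 0.73 with single libraries left out (0.73 without WT 2). The feedback regulator median was -0.43 with the length offset and between -0.44 and 0.032 with single libraries left out (-0.44 without Srp72+/- 3). Signs reversed with voom for Nfkb2 (0.16), Chuk (0.033), Cxcl2 (1.1), Ccl3 (0.78) and Ptgs2 (0.0072), with the length offset for Map3k14 (-0.25), Malt1 (0.16), Tnf (-0.013) and Tnfaip2 (-0.61), and without WT 2 and Srp72+/- 1 for Map3k14 (-0.039), Nfkb2 (0.14) and Nfkbib (0.35). With single libraries left out, log2 fold changes that reversed lay between -0.25 and 0.030 for Ikbkg, -0.39 and 1.55 for Tnf, -1.43 and 1.81 for Il1rn, -0.28 and 0.54 for Tnfaip2, -0.51 and 0.11 for Nfkb2, -0.57 and 0.16 for Chuk, -0.56 and 0.089 for Nfkbib, -1.21 and 0.93 for Ccl3, -0.11 and 0.011 for Nfkb1, -0.52 and 0.36 for Tnfaip3, -0.59 and 0.72 for Ptgs2, -0.027 and 0.51 for Map3k14, and -0.36 and 0.11 for Rela. The cause was not tested. With the replicate block, 0 genes and 0 members were called, the component median was -0.25, and signs reversed for Ikbkg (0.036), Il1rn (-0.69), Tnfaip2 (-0.075) and Ptgs2 (0.038). The labels give same-numbered libraries only a number in common. Correlations of deviations were -0.316, -0.162 and 0.00177 for numbers 1 to 3, and the highest, 0.395, was between Srp72+/- 1 and WT 2. With so few libraries these values cannot show whether same-numbered libraries were paired. Depth limits Il1a, Il6 and Cxcl1, which were not tested.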

Other observations

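WT 3 held the highest values of several immediate-early genes outside the 48 members, looked up after the values were seen. Dusp1, a phosphatase gene, was at 83.1, 168 and 192 CPM in Srp72+/- 1 to 3, against 86.0, 55.6, 556 and 121 CPM in WT 1 to 4. Zfp36, which encodes a protein that destabilises cytokine mRNA, was at 203, 270.4 and 268 CPM in Srp72+/-, against 227, 220.2, 645 and 264 CPM in WT. Among the members, WT 3 was the highest library for 4 of 9 feedback regulators, or 44.4%, against 11.9% of all tested genes. These are values of 1 library, and no difference between the genotypes is read from them.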
